A study of Mus musculus with 20 samples.

Results

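Transcripts of 3 pacemaker channel genes, Hcn2, Hcn3 and Hcn4, were followed in single cells of the mouse habenula from embryonic day 11 to adulthood. The genes were taken by symbol and are 3 of 37994 genes in the tables of the developmental series and 3 of 36104 genes in the tables of a second set of plates. RNA was read by Cel-seq2, which tags the end of each transcript with a unique molecular identifier (UMI), in plates of 384 wells holding single cells. In the developmental series, 15 plates of habenula came from the mouse line Brn3a-tauLacZ (Brn3a is the older name of Pou4f1, a transcription factor of habenular neurons), with 2 plates each at E11, E13, E15, E18, P4, P7 and in adults and 1 plate at E12. The second set held 5 plates of E18 habenula from C57BL/6 mice, of which 2 were from the left side, 2 from the right side and 1 from both sides; the title of that last plate reads E1, while its other labels give E18. The labels do not give the genotype at the reporter, the sex of the mice, the gate of any sort, the adult age or the animals behind each plate, so p-values measure the spread between plates, which may be technical.

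HCN channels open when the membrane hyperpolarizes and pass an inward cation current that drives the cell back towards firing. Binding of cAMP to the channel eases opening, and the subunits differ in speed and in their sensitivity to cAMP. Hcn4 is the main subunit of the sinoatrial node, Hcn2 is widespread in the brain and is also known from oligodendrocytes, and Hcn3 is only weakly sensitive to cAMP. Neurons of the medial habenula fire spontaneously, and HCN channels are known to contribute to that firing.

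In GRCm38 with GENCODE M21, Hcn2 (ENSMUSG00000020331) lies on the plus strand of chromosome 10 from 79716634 to 79736108, Hcn3 (ENSMUSG00000028051) on the minus strand of chromosome 3 from 89146074 to 89160196, and Hcn4 (ENSMUSG00000032338) on the plus strand of chromosome 9 from 58823412 to 58863175. Hcn3 overlaps Pklr, a pyruvate kinase gene on the other strand, and the labels do not say whether counting used the strand, so reads of the overlap are uncertain.

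Of 5756 wells in the developmental series 3729 were kept, and of 1920 wells in the C57BL/6 set 1082. To be kept, a well needed 1000 or more counts without the mitochondrial genes and 500 or more genes, and no more than 20% of its counts could be mitochondrial. Summed counts per plate ran from 758697 to 7760372, and the median kept well held 5058 to 29096 counts. Levels are counts per 1000000 counts (CPM) of the summed kept wells of a plate, and in such sums fewer cells of a type and less RNA per cell cannot be told apart. A neuron gate took wells with at least 10 UMIs of neuron markers and more of these than of nonneuronal markers, and it held 3149 kept wells of the series. A nonneuronal gate, with the reverse order and no Pou4f1, held 386. E18 plate 1 stood apart: 43.1% of its kept wells passed the neuron gate and 28.1% held Pou4f1, its summed medial habenula markers came to 266 CPM against 3836 CPM on E18 plate 2, and its progenitor markers to 3809 against 217 CPM. E13 plate 2 also differed from its pair: 61.3% of its kept wells passed the neuron gate and 24.1% the nonneuronal gate, against 85.6% and 4.58% on E13 plate 1 of the series, and its nonneuronal markers summed to 4819 against 298 CPM. Of the adult plates, plate 1 kept 56 wells, with a median of 11.9% mitochondrial counts, and 33.9% and 52.9% of the kept wells of the adult plates passed the neuron gate.

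Hcn2 was sparse in every embryonic plate and highest in the adult plates. Its level was 3.28 and 4.09 CPM on the E11 plates, 4.0 CPM at E12, 3.41 and 1.59 CPM at E13, 4.34 and 2.08 CPM at E15, and 3.19 and 2.26 CPM at E18. After birth it was 6.61 and 3.99 CPM at P4, 7.35 and 13.4 CPM at P7, and 58.0 and 37.6 CPM in adults. Both adult plates lay above every other plate, and both P7 plates lay above every earlier plate of the series. The embryonic values of the series rest on few molecules: 37 UMIs at E11, 19 at E12, 9 at E13, 15 at E15 and 11 at E18, against 65 at P4, 133 at P7 and 233 in adults. On the C57BL/6 plates of E18, Hcn2 was 7.26 and 3.24 CPM on the left and 7.42 and 4.32 CPM on the right. Plate 1 of each side lay above both P4 plates, and right plate 1 also above P7 plate 1. Mouse line and set of plates differed together there and cannot be told apart. In order of the stage means, Hcn2 went from E13 (2.5 ± 1.28 CPM, SD, n = 2) and E18 (2.73 ± 0.659) over E15 (3.21 ± 1.60), E11 (3.68 ± 0.567), E12 (4.0) and P4 (5.30 ± 1.86) to P7 (10.4 ± 4.26) and adult (47.8 ± 14.4). Neighbours in that order from E13 to P4 did not differ beyond their spread. Within the neuron gate the adult plates held 37.8 and 25.2 CPM of Hcn2 and the P7 plates 7.59 and 13.4 CPM, so those plates too did not overlap. Nonneuronal markers moved with Hcn2 inside that gate: they summed to 158 and 120 CPM in neuron gate wells of the P7 plates of the series and to 1258 and 473 CPM in those of the adult plates, and their part in the result was not tested.

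Hcn3 was present at every stage, with its highest level at E12. The plates gave 54.7 and 53.3 CPM at E11, 80.7 CPM at E12, 30.7 and 23.4 CPM at E13, 28.2 and 41.0 CPM at E15, and 16.4 and 51.2 CPM at E18. Later levels were 41.9 and 33.0 CPM at P4, 41.8 and 44.9 CPM at P7, and 35.6 and 43.9 CPM in adults. The E11 and E12 plates lay above all other plates of the series, and the E18 plates were the farthest apart of any pair. Of the C57BL/6 plates of E18, right plate 1 lay above both E11 plates and below the E12 plate. Both left plates and right plate 2 lay below the E11 plates. Mouse line and set of plates differed together there and cannot be told apart. In order of the stage means, Hcn3 went from E13 (27.0 ± 5.17 CPM, SD, n = 2) over E18 (33.8 ± 24.7), E15 (34.6 ± 9.04), P4 (37.4 ± 6.31), adult (39.8 ± 5.90) and P7 (43.3 ± 2.19) to E11 (54.0 ± 0.954) and E12 (80.7). From E13 to P7 the plate ranges of neighbours overlapped. Within the neuron gate the 2 E18 plates still held 26.9 and 53.6 CPM of Hcn3, and the adult plates 45.7 and 51.6 CPM.

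Hcn4 was also present at every stage, and it was lowest on E18 plate 1. Its level was 62.4 and 59.0 CPM at E11, 65.7 CPM at E12, 88.6 and 46.2 CPM at E13, 72.2 and 59.7 CPM at E15, and 12.0 and 36.9 CPM at E18. It was 71.4 and 61.8 CPM at P4, 67.8 and 74.2 CPM at P7, and 35.6 and 69.2 CPM in adults. Both E18 plates lay below every plate of E11 to E15, P4 and P7 (46.2 CPM or more), and adult plate 1 lay below that mark too. The order of the stage means was E18 (24.4 ± 17.6 CPM, SD, n = 2), adult (52.4 ± 23.8), E11 (60.7 ± 2.38), E12 (65.7), E15 (66.0 ± 8.82), P4 (66.6 ± 6.79), E13 (67.4 ± 29.998) and P7 (71.0 ± 4.55). From the adult stage to P7 the plate ranges of neighbours with 2 plates each overlapped. Within the neuron gate Hcn4 was 21.8 and 38.4 CPM on the E18 plates, 49.7 and 83.7 CPM on the adult plates, and 94.3 and 70.5 CPM on the E13 plates. The C57BL/6 plates of E18 held more Hcn4 than E18 plate 1 of the Brn3a-tauLacZ line: 67.1 and 51.9 CPM on the left, 67.5 and 43.3 CPM on the right and 36.0 CPM on the plate of both sides. E18 plate 2 of that line, with 36.9 CPM, lay within the range of the C57BL/6 plates. Mouse line and set of plates differed together there and cannot be told apart.

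**Figure D1:**
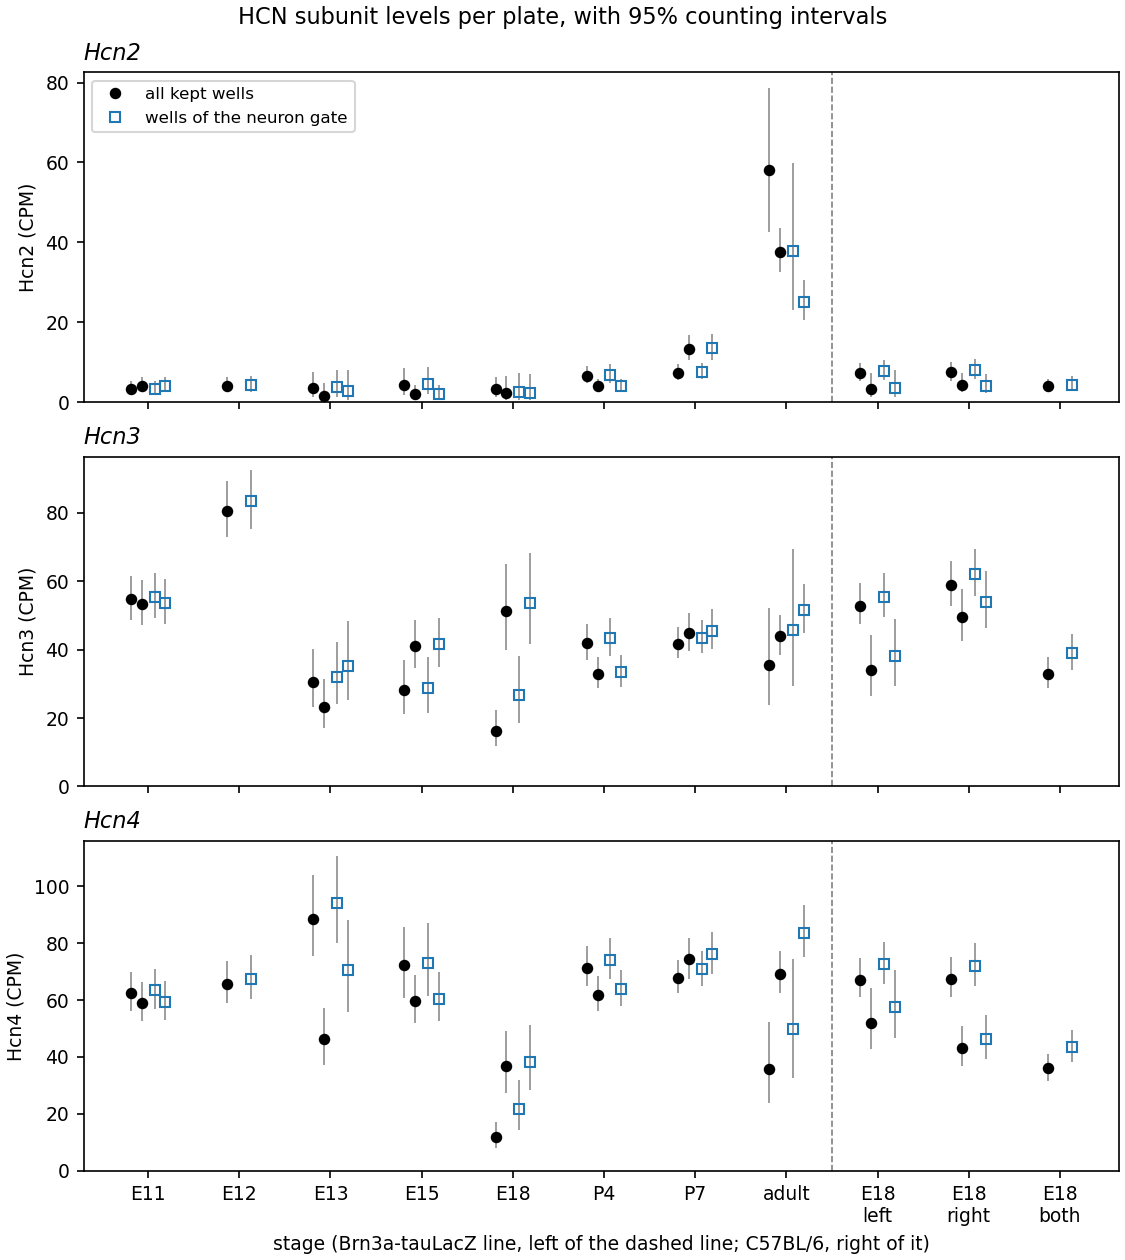
Levels of Hcn2, Hcn3 and Hcn4 in CPM for each plate by stage (filled points: all kept wells; open squares: neuron gate wells; bars: 95% counting intervals), with the C57BL/6 plates right of the dashed line. Hcn2 reached 58.0 and 37.6 CPM on the adult plates, while E18 plate 1 held the lowest Hcn3 (16.4 CPM) and Hcn4 (12.0 CPM) of the series.

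To compare the share of wells with at least 1 UMI across depths, each well was reduced by calculation to 3000 UMIs. The share for Hcn2 was then between 0.399% and 4.41% on the 13 series plates of E11 to P7, and 13.8% and 11.3% on the adult plates. At full depth, 33.9% and 33.0% of adult wells held Hcn2. For Hcn3 the reduced share ran from 4.33% on E18 plate 1 to 19.3% at E12, and for Hcn4 from 3.20% on E18 plate 1 to 22.7% on E13 plate 1. The shares followed the CPM: the same plates were at the ends of both. Among neuron gate wells at full depth, not reduced, Hcn3 and Hcn4 were detected together in 33.2% and 23.8% of wells on the P4 plates, 36.7% and 26.9% on the P7 plates, and 21.1% and 30.4% on the adult plates. Wells with neither made up 14.4% to 47.4%, the highest share being that of adult plate 1, with 9 of its 19 neuron gate wells. Depth differed there: median counts per neuron gate well were 11860 on adult plate 1 and 18569 to 24002 on the remaining P4, P7 and adult plates.

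The trend over the 8 stages in order was tested in 1 fit of all 15 plates with edgeR's quasi-likelihood test and Benjamini-Hochberg adjustment over 20324 genes, of which 30.5% were called at an adjusted p of 0.05, 17.2% rising and 13.4% falling. Hcn2 rose by 0.48 ± 0.10 on the log2 scale per stage (SE; adjusted p = 0.0015). The slope of Hcn3 was −0.06 ± 0.06 (adjusted p = 0.496) and that of Hcn4 −0.00 ± 0.07 (adjusted p = 0.97), and neither passed the test. The slope of Hcn2 was 0.39 ± 0.08 in neuron gate wells (adjusted p = 0.00152, 35.8% of genes called) and 0.39 ± 0.10 in Pou4f1-positive wells (adjusted p = 0.00531, 34.6% called). Without the adult plates, in a fit added after the data were seen, the slope was 0.23 ± 0.09 and no longer passed the test (adjusted p = 0.0789, 23.4% called). In the neuron gate without adults it was 0.23 ± 0.08 (adjusted p = 0.0525, 29.7% called).

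Steps between consecutive stages with 2 plates each were tested in 1 fit of 14 plates over 17453 genes. From P7 to adult, where 3.58% of genes were called (1.76% up, 1.82% down), Hcn2 rose by 2.08 ± 0.47 (log2, SE; adjusted p = 0.0394). That call was lost in neuron gate wells (1.41 ± 0.42, adjusted p = 0.0736, 4.95% called) and in Pou4f1-positive wells (1.53 ± 0.53, adjusted p = 0.126, 3.68% called). It was also lost without wells above 3 times the plate's median count (2.12, adjusted p = 0.0559), without P7 plate 1 (1.70, adjusted p = 0.315), without P7 plate 2 (2.51, adjusted p = 0.196) and without adult plate 1 (1.72, adjusted p = 0.211), while without adult plate 2 it was kept (2.44, adjusted p = 0.0331). Nonneuronal cells moved with the step. The 20 nonneuronal markers summed to 9384 and 3261 CPM on the adult plates of the series. On the P7 plates they summed to 967 and 390 CPM. Among them the myelin marker Mobp was at 0 on both P7 plates and Mog on P7 plate 1, while Mbp, Olig1 and Pdgfra were detected on both. In neuron gate wells, where the call was lost, the median well held 3 and 1 UMIs of the nonneuronal markers on the P7 plates. On the adult plates it held 20 and 9. The 15 genes of the dissociation response, which cells switch on while tissue is taken apart, also moved with the step in all kept wells of the series, from 1770 and 2063 CPM at P7 to 3553 and 3838 CPM in adults, and their part in the result was not tested. The log2 difference from P7 to adult was −0.21 for Hcn3 (adjusted p = 0.83) and −0.48 for Hcn4 (adjusted p = 0.594), and neither passed.

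From E18 to P4, where 19.6% of genes were called (9.20% up, 10.4% down), Hcn4 rose by 1.71 ± 0.49 (log2, SE; adjusted p = 0.0344). In neuron gate wells the rise was 1.34 ± 0.31 (adjusted p = 0.00902, 24.8% called) and in Pou4f1-positive wells 1.23 ± 0.36 (adjusted p = 0.0332, 20.4% called). Without E18 plate 1 the difference for Hcn4 was 0.97 and did not pass (adjusted p = 0.175), and the call was also lost without P4 plate 1 (1.66, adjusted p = 0.124), without P4 plate 2 (1.80, adjusted p = 0.12) and with only the plates of both stages (1.59, adjusted p = 0.179). Without E18 plate 2 it was 2.84 (adjusted p = 0.00176). Medial habenula markers moved with this step, from 266 and 3836 CPM on the E18 plates of the series to 6550 and 7425 CPM on the P4 plates. Nonneuronal markers moved the other way, from 2729 and 1251 CPM to 360 and 244 CPM. The part of either list in the result was not tested. The difference was 1.14 for Hcn2 (adjusted p = 0.172) and 0.38 for Hcn3 (adjusted p = 0.552), and neither passed. Without E18 plate 2, so that only the plate that stood apart was left, Hcn3 passed with 1.56 (adjusted p = 0.00632).

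At the other steps no member passed the test. From E11 to E13 (1.45% of genes called) the log2 difference of Hcn3 was −1.14 ± 0.44 (edgeR, adjusted p = 0.211), and without E13 plate 2 it was −0.96 (adjusted p = 0.774). In neuron gate wells the E13 plates held 32.0 and 35.2 CPM of Hcn3, so that plate 2 was the lower of the pair in all kept wells but not in that gate. From E15 to E18 (0.195% called) that of Hcn4 was −1.60 ± 0.50 (adjusted p = 0.166). With E18 plate 1 alone at E18 both Hcn4 (−2.69, adjusted p = 0.00742) and Hcn3 (−1.35, adjusted p = 0.0312) passed. From E13 to E15 0.0917% of genes were called, and the members lay between 0.08 for Hcn4 and 0.50 for Hcn3. From P4 to P7 (0.00573% called) the difference was 0.94 ± 0.47 for Hcn2, 0.19 ± 0.41 for Hcn3 and 0.07 ± 0.44 for Hcn4 (adjusted p = 1 for each).

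**Figure D2:**
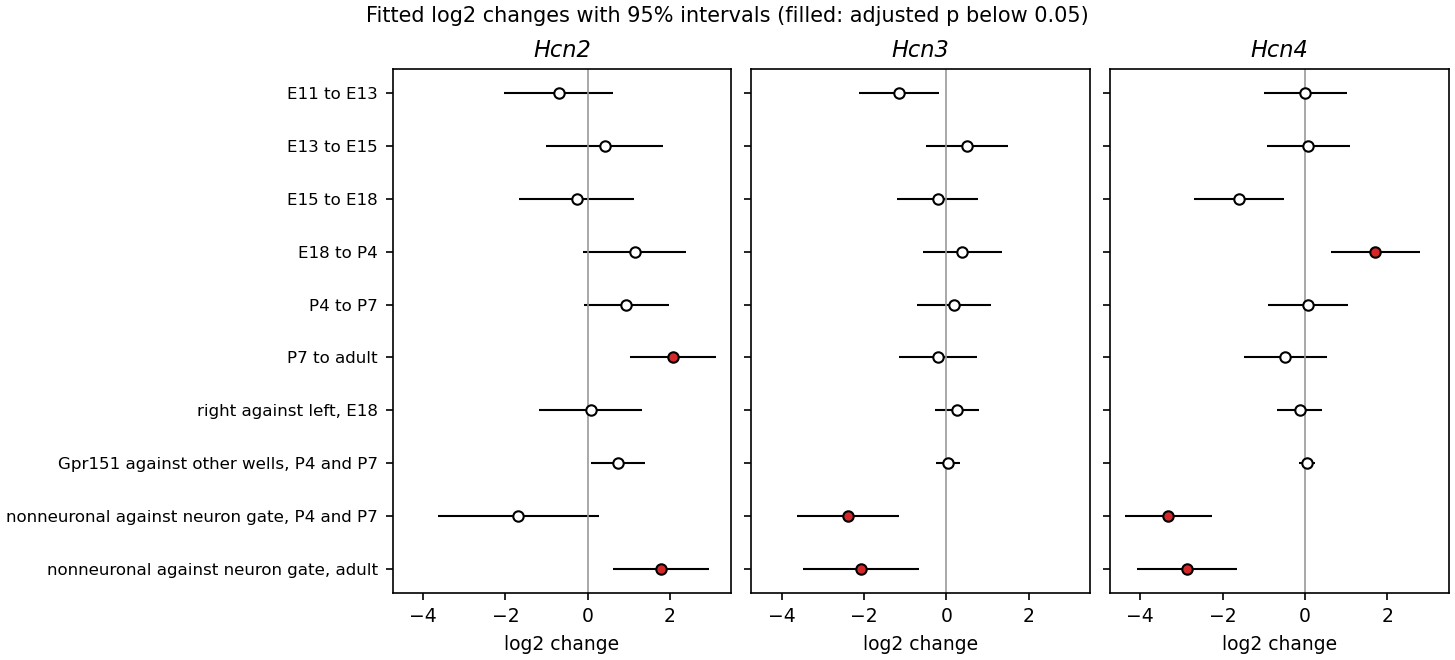
Fitted log2 changes of Hcn2, Hcn3 and Hcn4 in each comparison, with 95% intervals; filled points have an adjusted p below 0.05. Hcn2 passed from P7 to adult (2.08, a call lost in neuron gate wells), Hcn4 from E18 to P4 (1.71), and in adult nonneuronal against neuron gate wells Hcn2 (1.78), Hcn3 (−2.08) and Hcn4 (−2.86) passed, as did Hcn3 (−2.39) and Hcn4 (−3.32) at P4 and P7.

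At P4 and P7, wells with at least 5 UMIs of Gpr151, an orphan receptor of habenular projection neurons, were set against all other Pou4f1-positive wells of the same plates. The levels of Hcn3 and Hcn4 overlapped between the classes, and Hcn2 was higher in Gpr151 wells on 3 of 4 plates without passing the test. There were 350 Gpr151 wells, 66 and 60 on the P4 plates and 120 and 104 on the P7 plates, of which 3 held no Pou4f1 UMI. The other class held 763 wells, and both came from 1229 kept wells. Median counts per well were 21027 to 23942 in Gpr151 wells and 18010 to 23964 in the others.

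Hcn2 in Gpr151 wells was 13.0 and 5.75 CPM on the P4 plates and 6.82 and 17.9 CPM on the P7 plates. In the other Pou4f1-positive wells it was 4.56 and 3.45 CPM at P4 and 8.25 and 8.89 CPM at P7. The ranges of the classes overlapped, and P7 plate 1 went the other way. Hcn3 was 33.1, 43.8, 43.5 and 47.0 CPM in Gpr151 wells and 46.6, 30.4, 42.6 and 45.1 CPM in the others, in the same order of plates. Its P4 plates differed in opposite directions, by more than either P7 plate. Hcn4 was 73.3, 61.8, 73.8 and 77.8 CPM in Gpr151 wells and 73.3, 63.7, 67.8 and 75.4 CPM in the others, so that the classes overlapped almost fully.

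In edgeR's quasi-likelihood test with the plate as a block, 11.0% of 13407 genes were called, 5.04% as higher and 5.95% as lower in Gpr151 wells. The Hcn2 difference had an unadjusted edgeR p of 0.0322. The log2 difference of Gpr151 wells from the others was 0.73 ± 0.31 for Hcn2 (SE; 95% interval 0.07 to 1.39, adjusted p = 0.178; 0.485 without P4 plate 1 and 1.11 without P7 plate 1), on means of 10.9 ± 5.66 and 6.29 ± 2.68 CPM (SD, n = 4). For Hcn3 it was 0.05 ± 0.14 (interval −0.25 to 0.34, adjusted p = 0.916), on 41.9 ± 6.06 and 41.2 ± 7.36 CPM. For Hcn4 it was 0.05 ± 0.09 (interval −0.14 to 0.24, adjusted p = 0.829), on 71.7 ± 6.87 and 70.1 ± 5.30 CPM. Whether the effect of Gpr151 class differed between P7 and P4 was tested as an interaction, with 0.112% of genes called; the difference was −0.77 for Hcn2 (adjusted p = 0.965), 0.04 for Hcn3 (0.995) and 0.11 for Hcn4 (0.974).

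Shares of positive wells gave a like picture. Hcn2 was detected in 68 of 350 Gpr151 wells and in 78 of 763 others, Hcn3 in 163 and 335, and Hcn4 in 221 and 452. With wells reduced to 10000 UMIs, the Hcn2 share was 9.52 ± 4.25% in Gpr151 wells and 6.08 ± 2.15% in the others (SD, n = 4; exact paired permutation test, two-sided p = 0.25). The Hcn3 share was 29.2 ± 3.55% and 29.8 ± 4.23% (exact permutation p = 0.75), and the Hcn4 share 43.2 ± 3.88% and 43.8 ± 2.63% (exact permutation p = 0.75). The smallest p that 4 plates allow is 0.125, so this test could not pass 0.05. For comparison, of 61 nonneuronal gate wells on these plates, 2 held Hcn2, 6 held Hcn3 and 4 held Hcn4, at median counts of 10990 to 13408 per plate.

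Levels near the threshold of the class varied. Wells with 5 or 6 UMIs of Gpr151 held 9.59 CPM of Hcn2, 50.9 CPM of Hcn3 and 61.9 CPM of Hcn4 over 63 wells, and wells with 3 or 4 UMIs held 5.43, 37.1 and 77.6 CPM over 84 wells. Inside the other class, Hcn4 was 78.2 ± 10.3 CPM (SD, n = 4) in wells with 1 to 4 UMIs of Gpr151 and 61.7 ± 5.12 CPM in wells with none, a contrast that was not tested. Hcn4 was higher in the wells with 1 to 4 UMIs on 3 of 4 plates, and on P7 plate 1 the levels were 67.1 and 68.7 CPM. Depth differed as well, since the wells with none were shallower on each plate. Their median counts were 14785 to 22330 per plate, against 21255 to 25450 in wells with 1 to 4 UMIs, and the part of depth was not tested. Hcn4 was 16.2 ± 6.27 CPM in the 116 wells that had neither Pou4f1 nor 5 UMIs of Gpr151, where Hcn3 was 15.9 ± 5.10 CPM. Medial habenula markers summed to 8204 to 8962 CPM in Gpr151 wells of the series and to 6187 to 7219 CPM in the others, lateral habenula markers to 640 to 1089 against 610 to 793 CPM, nonneuronal markers to 98 to 141 against 135 to 306 CPM, and progenitor markers to 62 to 99 against 89 to 215 CPM, and their part in the Hcn2 difference was not tested.

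**Figure D3:**
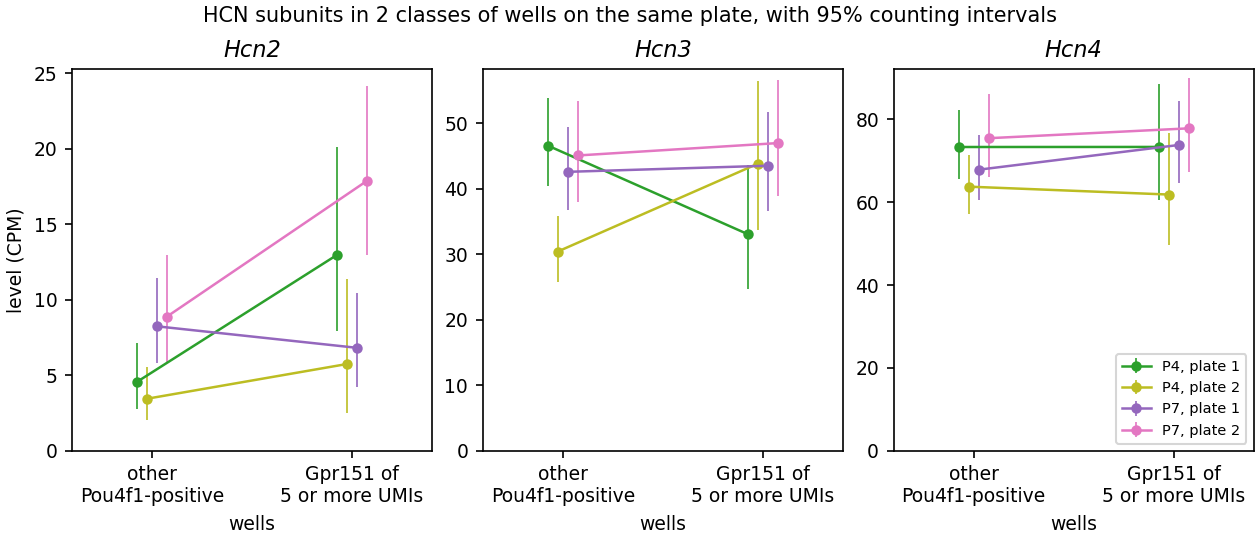
Levels of Hcn2, Hcn3 and Hcn4 in CPM in other Pou4f1-positive wells and in Gpr151 wells, with 1 line per plate of P4 or P7 and 95% counting intervals. Hcn2 was higher in Gpr151 wells on 3 of 4 plates, up to 17.9 against 8.89 CPM, while the lines of Hcn4 stayed between 61.8 and 77.8 CPM.

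For the 2 adult plates the same classes are given as values, and those of plate 1 were small. In adult Gpr151 wells Hcn2 was 44.6 CPM over 12 wells of plate 1 and 25.6 CPM over 146 wells of plate 2, against 36.5 CPM over 10 wells and 20.5 CPM over 40 wells of the other class. Hcn2 was thus higher than in the same class at P4 and P7 on both adult plates. Hcn3 was 54.5 and 51.6 CPM in adult Gpr151 wells against 12.2 and 53.3 CPM. Hcn4 was 62.0 and 76.1 CPM in adult Gpr151 wells, while it was at 0 in the other wells of plate 1 and at 112 CPM in those of plate 2.

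Several genes that act on the channels differed between the Gpr151 wells and the others, in a comparison that called 11.0% of all genes (5.04% higher, 5.95% lower). Marker sums differed too: nonneuronal markers were 98 to 141 against 135 to 306 CPM and progenitor markers 62 to 99 against 89 to 215 CPM. Medial habenula markers were 8204 to 8962 against 6187 to 7219 CPM. The part of these markers in the changes below was not tested. Of the HCN auxiliary and regulatory proteins, 1 rose and 1 fell among 5 tested of 10 (median log2 difference 0.01, against −0.00 over all genes). Pex5l, which encodes TRIP8b, the protein that controls surface delivery of HCN channels, fell from 113 ± 38.5 to 65.8 ± 16.6 CPM (SD, n = 4; −0.76, edgeR adjusted p = 3.36e-05). The kinase gene Src rose by 0.40 (adjusted p = 0.0454). Of the adenylyl cyclases, which make cAMP, 4 of 7 tested fell and none rose (median −0.55): Adcy5 (−2.24), Adcy6 (−0.74), Adcy2 (−0.55) and Adcy8 (−0.33). Adcy5 was at 1.72 ± 1.22 CPM in Gpr151 wells and 8.92 CPM in the others (SD, n = 4), so the size of its fold rests on few counts. Of the G protein alpha subunits that steer them, 3 of 7 rose and none fell (median 0.07): Gnaz by 1.03, Gnas by 0.26 and Gnao1 by 0.18. Phosphodiesterases, which break down cyclic nucleotides, went both ways, with 3 of 14 up and 3 down (median −0.35). Pde1a rose by 0.68, and Pde4b (−1.03) and Pde1b (−0.41) fell. Pde3a was also called lower, at 0.91 ± 1.56 CPM in Gpr151 wells and 5.68 CPM in the others (SD, n = 4). It was not detected in Gpr151 wells of P4 plate 2 and P7 plate 1, so no fold is given. Of other pacemaking and leak channel genes, 5 of 17 rose and 4 fell (median 0.20): the T-type calcium channel gene Cacna1g rose by 0.99 and the A-type potassium channel gene Kcnd3 by 0.96, while the leak channel gene Kcnk2 (−1.42) and the M-current gene Kcnq3 (−0.62) fell. Pex5l, Adcy2, Adcy5, Adcy6, Adcy8, Gnas, Gnao1, Gnaz, Pde3a, Kcnd3, Kcnk2 and Kcnq3 overlap other annotated genes, so their counts are uncertain there, as are those of Kcnd2, Kcnk1, Kcnk3, Gnal, Gnai1, Gnai2, Pde1c, Pde2a, Pde7a, Pde7b, Pde8a, Pde11a, Cacna1h, Cav1, Mrvi1, Nedd4l, Rxfp2, Htr5b, Sema3d, Phldb2, Gad1 and Cdh20. The largest changes of genes with at least 20 CPM were rises of Rxfp2, Htr5b, Sema3d, Phldb2 and Calb1 (2.79 to 3.25) and falls of Gad1, Fabp7, Neurod6, Mical2 and Cdh20 (−2.78 to −4.29).

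Over the 8 stages, where 30.5% of all genes were called (17.2% rising, 13.4% falling), genes of the same lists were called too. Of the auxiliary proteins 1 of 9 rose and none fell (median slope 0.04 per stage, against 0.01 over all genes): Pex5l rose by 0.34 per stage (edgeR adjusted p = 0.000493), from 44.3 ± 7.80 CPM at E11 to 259 ± 125 CPM in adults (SD, n = 2). Of the adenylyl cyclases, 3 of 10 rose and 2 fell (median 0.01), with Adcy2 (0.32) and Adcy8 (0.27) up and Adcy1 (−0.28) and Adcy6 (−0.16) down. Among G protein alpha subunits 2 of 7 fell, Gnai3 (−0.29) and Gnai2 (−0.20), and none rose (median −0.08). Among phosphodiesterases 6 of 16 rose and 2 fell (median 0.11), led by Pde1a (0.95), Pde11a (0.85), Pde2a (0.65) and Pde7b (0.42). Of the other pacemaking and leak genes 7 of 17 rose and 1 fell (median 0.16), led by the leak channel genes Kcnk9 (1.32), Kcnk1 (0.80) and Kcnk3 (0.61) and by Kcnd2 (0.64). Cell type markers of the series moved over the stages too. Nonneuronal markers went from 167 and 53.7 CPM at E11 to 9384 and 3261 CPM in adults, and medial habenula markers from 678 and 696 to 5558 and 7893 CPM. Their part in these counts was not tested.

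At the steps where a member passed, the lists gave the following counts. From E18 to P4, against 19.6% of all genes called (9.20% up, 10.4% down), 1 of 7 tested auxiliary genes rose (Kctd3, 0.78), 4 of 7 G protein alpha subunits rose and 1 fell, 2 of 16 phosphodiesterases rose and 1 fell, and 4 of 17 pacemaking and leak genes rose and 1 fell. The shares called in either direction among the auxiliary genes and the phosphodiesterases were thus no higher than that over all genes. Gnal, the alpha subunit that couples receptors to cyclases in several neurons, rose by 2.33, Gnao1 by 1.41 and Gnai1 by 1.29, and Gnai2 fell by 1.81. Kcnk9 (3.27), Kcnk1 (2.98) and Kcnk3 (2.85) rose and Kcnk2 fell by 2.85, Pde2a (3.24) and Pde1a (2.62) rose and Pde1c fell by 1.59. Over this step medial habenula markers of the series went from 266 and 3836 to 6550 and 7425 CPM. Nonneuronal markers went from 2729 and 1251 to 360 and 244 CPM. The part of these markers, and of E18 plate 1, which stood apart, in the counts from E18 to P4 was not tested. No adenylyl cyclase passed, and the smallest p was that of Adcy4, at 3.17 ± 3.42 CPM at E18 and 0.153 ± 0.217 CPM at P4 (SD, n = 2; edgeR adjusted p = 0.09). From P7 to adult, against 3.58% of all genes called (1.76% up, 1.82% down), 2 of 7 auxiliary genes rose (Mrvi1, 4.22, and Cav1, 3.86), 2 of 16 phosphodiesterases rose (Pde7b, 3.16, and Pde4b, 2.33) and Pde7a fell by 0.97, and of 17 pacemaking and leak genes 1 fell (Cacna1h, −2.03). Nonneuronal markers of the series moved with these counts too (967 and 390 CPM at P7, 9384 and 3261 CPM in adults), and their part was not tested. No adenylyl cyclase of 10 and no G protein alpha subunit of 7 was called, and the smallest p in these lists was that of Adcy5 (1.48, adjusted p = 0.14) and Gnai3 (−0.79, adjusted p = 0.0621). The median log2 changes of the 5 lists ran from −0.27 to 1.26 for E18 to P4, against −0.07 over all genes, and from −0.33 to 0.36 for P7 to adult, against −0.02.

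In the adult plates, Hcn2 was highest in wells led by markers of the oligodendrocyte lineage, the myelin-forming cells, while Hcn3 and Hcn4 were highest in neuron gate wells. This comparison was added after the data were seen. In nonneuronal gate wells led by the oligodendrocyte lineage markers, among them Mbp, Mobp, Mog, Olig1 and Pdgfra, Hcn2 was 175 CPM on adult plate 1 (95% counting interval 104 to 278, 17 wells) and 170 CPM on adult plate 2 (135 to 211, 62 wells). In neuron gate wells it was 37.8 CPM (23.0 to 59.7, 19 wells) and 25.2 CPM (20.6 to 30.7, 181 wells). Each plate thus held more Hcn2 in the first kind of well. The counting intervals within a plate did not overlap, but they leave out the spread between wells. Of the oligodendrocyte-marker wells 9 of 17 and 29 of 62 held Hcn2, at median counts of 2135 and 7344 per well, against medians of 11860 and 22086 in neuron gate wells. Wells led by astrocyte markers held 33.8 and 14.6 CPM of Hcn2, from 2 UMIs each, and the 47 wells led by vascular markers on plate 2 held 9.99 CPM.

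Hcn3 in the oligodendrocyte-marker wells was 29.2 and 12.3 CPM on the 2 adult plates, against 45.7 and 51.6 CPM in neuron gate wells. Hcn4 was 19.4 and 8.18 CPM in the oligodendrocyte-marker wells, against 49.7 and 83.7 CPM. On plate 1 these wells held 3 UMIs of Hcn3 (95% counting interval 6.05 to 85.7 CPM) and 2 UMIs of Hcn4 (2.37 to 70.6 CPM). Both intervals overlapped those of the neuron gate there (29.4 to 69.5 and 32.6 to 74.3 CPM). On plate 2 the intervals did not overlap for either gene, though these too leave out the spread between wells. The neuron gate held 85.2% and 94.6% of Hcn3 UMIs and 92.6% and 97.4% of Hcn4 UMIs of the adult plates, and 66.1% and 80.5% of all UMIs. For Hcn2 it held 43.2% and 54.0%, while the oligodendrocyte-marker wells held 40.9% and 43.9% of Hcn2 UMIs and 13.6% and 9.73% of all UMIs. Neuron RNA was present in the nonneuronal wells too: the 12 neuron markers summed to 1617 and 1405 CPM in the nonneuronal gate of the series, against 7805 and 6864 CPM in the neuron gate. The dissociation response summed to 5271 and 7657 CPM in the nonneuronal gate of the adult plates and to 2672 and 2920 CPM in the neuron gate, and its part in the differences between the gates was not tested.

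**Figure D4:**
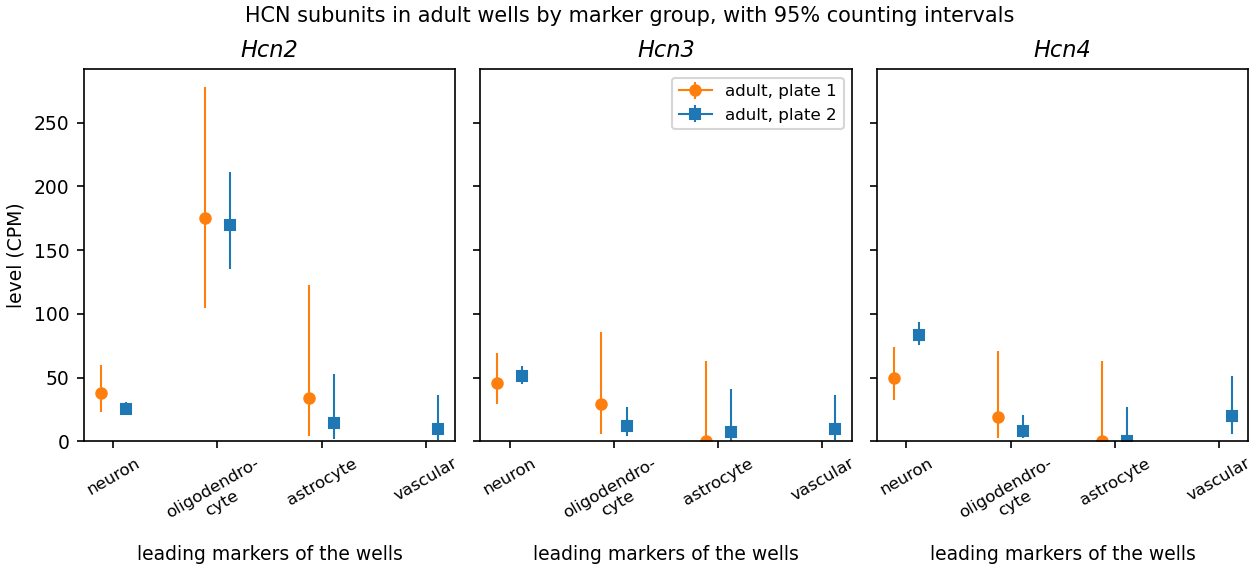
Levels of Hcn2, Hcn3 and Hcn4 in CPM in adult wells by leading markers, for groups of at least 5 wells on a plate, with 95% counting intervals. Hcn2 stood at 175 and 170 CPM in oligodendrocyte-marker wells, and Hcn4 at 49.7 and 83.7 CPM in neuron gate wells against 19.4 and 8.18 CPM.

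In edgeR's quasi-likelihood test of the nonneuronal against the neuron gate in adults, with the plate as a block and P4 and P7 plates in the same fit, 22.6% of 12344 genes were called, 13.1% as higher and 9.51% as lower in nonneuronal wells. Hcn2 was higher in nonneuronal wells by 1.78 ± 0.55 (log2, SE; adjusted p = 0.0257), at 106 ± 15.2 against 31.5 ± 8.93 CPM (SD, n = 2). Hcn3 was lower by 2.08 ± 0.67 (adjusted p = 0.0323), at 13.7 ± 5.41 against 48.7 ± 4.13 CPM. Hcn4 was lower by 2.86 ± 0.58 (adjusted p = 0.0016), at 10.8 ± 1.29 against 66.7 ± 24.0 CPM. With only oligodendrocyte-marker wells on the nonneuronal side (14.1% of genes called), the difference was 2.502 for Hcn2 (adjusted p = 0.00837), −1.54 for Hcn3 (0.301) and −2.72 for Hcn4 (0.0232). Without adult plate 1 the Hcn2 difference was 1.66 (adjusted p = 0.171), and without adult plate 2 it was 1.68 for Hcn2 (adjusted p = 0.345), −1.32 for Hcn3 (0.503) and −2.03 for Hcn4 (0.254), so those calls were lost. The call of Hcn3 was also lost with DESeq2 (−1.99, adjusted p = 0.0541) and without wells above 3 times the plate's median count (−1.81, adjusted p = 0.108).

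At P4 and P7, where 38.0% of genes were called, nonneuronal wells were lower than neuron gate wells in Hcn3 by 2.39 ± 0.59 (log2, SE; edgeR adjusted p = 0.00379) and in Hcn4 by 3.32 ± 0.50 (adjusted p = 4.17e-05). The difference of Hcn2 was −1.68 ± 0.93 and did not pass (adjusted p = 0.17). Oligodendrocyte-marker wells on these plates numbered 2 or 3 each and held no UMI of Hcn2, which at their depth allows up to 89.3 to 117 CPM per plate (95% upper bounds). The adult values of 175 and 170 CPM lay above these bounds, which cover counting error only and leave out the spread between wells. In adults 9 of 17 and 29 of 62 such wells held Hcn2. With 2 or 3 wells per plate, the P4 and P7 values cannot decide whether these wells differed from adult ones. The interval of adult plate 1, which starts at 104 CPM, still overlapped the bounds of P4 plate 1 (117 CPM) and P7 plate 1 (110 CPM). The myelin marker Mobp was not detected on any P4 or P7 plate, and Mog was not detected on P4 plate 2 and P7 plate 1. Mbp, Olig1 and Pdgfra of the same markers were detected on each of these plates. The adult Hcn2 difference minus that at P4 and P7 was 3.47 ± 1.03, with 1.56% of genes called, and did not pass after adjustment (adjusted p = 0.124). For Hcn3 it was 0.31 (adjusted p = 0.957) and for Hcn4 0.45 (adjusted p = 0.942).

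Genes of the same lists also differed between the adult gates, where 22.6% of all genes were called (13.1% higher, 9.51% lower). The nonneuronal gate mixed kinds of cells. Of its 147 wells on adult plate 2, 62 were led by oligodendrocyte lineage, 47 by vascular and 27 by astrocyte markers. On adult plate 1 these were 17, 3 and 5 of 25 wells. The part of each kind of well in the calls below was not tested. Of the auxiliary proteins 4 of 7 were higher in nonneuronal wells and 1 lower (median 1.89, against 0.00 over all genes), with the caveolin gene Cav1 (5.35), Flna (2.93) and Kctd3 (1.89) higher and Nedd4l lower (−1.91). Of the adenylyl cyclases 4 of 9 were higher and none lower (median 1.52), among them Adcy1 (3.09), Adcy6 (2.42) and Adcy2 (1.52). Of the G protein alpha subunits 2 of 7 were higher, Gnai1 (2.38) and Gnai2 (1.73), and 3 lower, among them Gnal (−2.60) and Gnaz (−1.80), with a median of −0.93. Of the phosphodiesterases 5 of 15 were higher and 5 lower (median −0.33), with Pde8a (5.23), Pde3a (4.29) and Pde4b (4.01) higher and Pde11a (−4.25) lower. Of the other pacemaking and leak genes 3 of 17 were higher and 8 lower (median −1.17), with Kcnk2 (3.99), Kcnq3 (3.90) and Cacna1h (2.81) higher and Kcnk9 (−3.47) lower.

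Left and right habenula of C57BL/6 mice at E18 did not differ in any member by more than the spread between plates. Hcn2 was 7.26 and 3.24 CPM on the left plates and 7.42 and 4.32 CPM on the right. Hcn3 was 52.9 and 34.1 CPM on the left and 58.8 and 49.6 CPM on the right. Hcn4 was 67.1 and 51.9 CPM on the left and 67.5 and 43.3 CPM on the right, so all 3 overlapped. The plates differed in yield: 283 and 54 wells were kept on the left plates and 279 and 133 on the right plates. In edgeR's quasi-likelihood test 0% of 15489 genes were called after adjustment, 182 genes had an unadjusted p under 0.05, and DESeq2 called 1. The difference of right from left was 0.07 for Hcn2 (95% interval −1.18 to 1.32), 0.27 for Hcn3 (−0.26 to 0.80) and −0.13 for Hcn4 (−0.68 to 0.42), each with an adjusted p of 1.00.

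The kind of transcript differed between the members. Reads counted as unspliced made up 12.1% of Hcn2 UMIs over the series (95% exact binomial interval 9.40 to 15.2), 0.957% of Hcn3 UMIs (0.620 to 1.41) and 1.29% of Hcn4 UMIs (0.951 to 1.70). Over all genes the unspliced share was 17.7% to 26.4% per series plate, so that of each member over the series lay below it. By stage, the share of Hcn2 lay within that range at P4, with 24.6% (14.8 to 36.9), and at P7, with 18.0% (11.9 to 25.6). In adults it lay below the range, with 3.86% (1.78 to 7.21). On few UMIs it was 5.41% at E11 (0.661 to 18.2), 5.26% at E12 (0.133 to 26.0), 11.1% at E13 (0.281 to 48.2), 33.3% at E15 (11.8 to 61.6) and 45.5% at E18 (16.7 to 76.6), with intervals that overlapped those of P4 and P7.

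The genes whose levels ran most like each member over the 15 series plates were found by Pearson's r of log2(CPM + 1) among 10808 genes with a mean of at least 10 CPM. For Hcn2 they were Pllp (0.958), Rtl8b (0.958), Tgoln1 (0.954) and Map1a (0.954), of which Pllp encodes a myelin protein. For Hcn3 they were Cacnb1 (0.935), Sgsm2 (0.911), Phactr3 (0.879), Nmnat2 (0.879) and D130079A08Rik (0.877), and for Hcn4 Hectd4 (0.916), Oprl1 (0.908), Rgmb (0.907), Celf5 (0.903) and Fcho1 (0.902). Between the members r was 0.53 for Hcn3 with Hcn4, 0.12 for Hcn2 with Hcn3 and 0.07 for Hcn2 with Hcn4. Pllp, Tgoln1, Map1a, Cacnb1, Sgsm2, Nmnat2, Hectd4 and Celf5 overlap other annotated genes, so their counts are uncertain. The plates behind these values differed in depth and in their mixture of cells. Of the kept wells, 33.9% (adult plate 1) to 98.3% (E11 plate 2) passed the neuron gate. The part of either in the correlations was not tested.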

How the data were processed

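Cel-seq2 plates were mapped with STAR 2.5.3a to mm10, per the submitters' processing notes. For the counting tool and its use of strand, nothing is given in the sources used. The deposited values are expected counts per gene and well, which the authors had corrected for UMI collisions: undoing that correction for 4096 possible UMIs gave whole UMIs for 100% of nonzero values (within 1e-06), while 46.1% and 43.8% of values in the 2 total tables were whole as deposited. The design had assumed plain counts. Here 92 spike-in rows were left out, wells were filtered, expected counts were summed per plate and rounded, and genes were tested with edgeR 4.0.16 (TMM, filterByExpr, glmQLFit) in R 4.3.3, with DESeq2 1.42.0 as an alternative and the plate as the replicate. Python 3.11.15, pandas 2.3.3 and scipy 1.17.1 gave levels, exact intervals and exact permutation tests. The fits were tested on simulated data. Plates held 758697 to 7760372 summed counts, and intervals cover counting error only.

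No doublet caller was run; wells above 3 times their plate's median count were left out in an alternative. Cell barcodes are the same set on every plate, so shared barcodes do not mark shared cells. Wells classed by Gpr151 and the other Pou4f1-positive wells share their plates, so the plate was a block there by design. Replicate numbers of the stages did not pair plates: 21 correlations of same-numbered plates' deviations ran from −0.357 to 0.246. For the sides, 2 pairs gave 1 correlation of 0.233 and the labels name no shared litter or day.

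The members, marker lists and gene lists were chosen with earlier results of these data known. Genes other than members were named by rule: up to 4 called genes per list and comparison with the largest log2 change, the 5 genes most like each member (1 of those of Hcn2 is not reported here), and the 5 largest rises and falls of the Gpr151 comparison among genes with at least 20 CPM. Genes at 0 in every plate of a group were not given a fold. Gene IDs were matched to GENCODE M21 for 37938 of 37994 and 36050 of 36104 genes. Alternatives were other scaling, filters on genes and wells, recovered UMIs, spliced counts, other thresholds for Gpr151, well gates and leaving out each plate.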

Additional observations from a re-analysis of the deposited data

Results flagged for a closer look

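Among the 4 plates of P4 and P7, the share of other Pou4f1-positive wells with Hcn3, at 10000 UMIs per well, was 23.5% on P4 plate 2 and 31.3% to 32.7% on the remaining plates. The gap of that plate to its nearest neighbour was 0.854 of the whole range, above Dixon's limit of 0.829 for 4 values. In all 18 such groups were examined and this was the single one above the limit; chance alone passes the limit in about 1 of 20 groups. On that plate Hcn3 was also lowest by level in the same wells (30.4 CPM).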

How the results depend on the processing

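In alternatives other than leaving out 1 plate at a time, 365 values of the members kept their direction and their side of the threshold, 20 changed sign, 10 no longer passed and 2 newly passed. Stage trend: Hcn2 no longer passed without the adult stage (0.23, and 0.23 in neuron gate wells). The near-zero Hcn4 trend changed sign with no filter on low counts (0.0010), spliced counts (0.0053), Pou4f1-positive wells (0.00054), neuron gate wells (0.0095) and without the adult stage (0.017, neuron gate 0.013). P7 to adult: Hcn2 no longer passed without wells above 3 times the plate median (2.12), in Pou4f1-positive wells (1.53), in neuron gate wells (1.41) and with the replicate block (2.03), and Hcn3 changed sign in Pou4f1-positive (0.0092) and neuron gate wells (0.055). E18 to P4: Hcn4 no longer passed with only the plates of the 2 stages (1.59). E15 to E18: Hcn4 passed with no filter on low counts (−1.62, adjusted p = 0.00015), and Hcn3 changed sign in Pou4f1-positive (0.15) and neuron gate wells (0.12). E13 to E15: Hcn2 changed sign in neuron gate wells (−0.045), and Hcn4 in Pou4f1-positive (−0.15) and neuron gate wells (−0.27). E11 to E13: Hcn3 passed with no filter (−1.20, adjusted p = 0.0145), and Hcn4 changed sign with no filter (−0.047) and in wells of at least 3000 counts (−0.016). In fits of only the 2 stages Hcn2 fell below the filter for E13 to E15 and E15 to E18 and gave no value. Gpr151 comparison: Hcn3 changed sign at 3 or more UMIs (−0.0010) and at 5 per 10000 counts (−0.045), and Hcn4 at 5 per 10000 counts (−0.15) and on P4 plates alone (−0.0095); 942 genes were called by DESeq2 and 568 on P4 plates alone, against 1474. The class difference in share of positive wells changed sign with all UMIs for Hcn3 (1.06 points) and Hcn4 (4.86), and at 3 or more UMIs for Hcn4 (1.78). Median shares over 20 plates moved with depth: with all UMIs 7.43% for Hcn2, 39.2% for Hcn3 and 48.7% for Hcn4, at 1000 UMIs 3.93% for Hcn3 and 5.52% for Hcn4, and at 5000 UMIs 16.95% and 24.1%. Left against right: Hcn2 changed sign without wells above 3 times the plate median (−0.12), and the genes called were 1 with DESeq2, 37 with no filter, 6 with the replicate block and 1 with the plate of both sides, against 0. Adult gates: Hcn3 no longer passed with DESeq2 (−1.99), without wells above 3 times the plate median (−1.81) or with oligodendrocyte-marker wells only (−1.54), where 1524 genes were called, against 2789. The replicate block changed no other call of a member. The cause of these shifts was not tested. Leaving out 1 plate at a time gave ranges of 0.485 to 1.11 for Hcn2 (0.42 to 1.19 over all alternatives) and −0.082 to 0.19 for Hcn3 in the Gpr151 comparison (985 to 1375 genes called), −0.025 to 0.017 for the Hcn4 trend, −0.68 to 0.40 for Hcn4 from E11 to E13, −0.060 to 1.15 for Hcn2 and −0.32 to 0.75 for Hcn4 from E13 to E15, −0.75 to 0.15 for Hcn2, −1.35 to 0.44 for Hcn3 and −2.69 to −0.92 for Hcn4 from E15 to E18, −0.33 to 1.56 for Hcn3 and 0.97 to 2.84 for Hcn4 from E18 to P4, and 1.70 to 2.51 for Hcn2 from P7 to adult. For the sides the ranges were −0.39 to 0.87 for Hcn2 and −0.51 to 0.17 for Hcn4, with 18 to 39 genes called. For the adult gates they were 1.66 to 1.80 for Hcn2, −2.64 to −1.32 for Hcn3 and −3.34 to −2.03 for Hcn4, with 815 (without adult plate 2) to 2828 genes called, and −0.12 to 1.06 for the Hcn3 difference between adult and P4 with P7. A lone plate left in a group is assumed to vary like the others. Genes called ranged from 528 to 5695 over all alternatives for E18 to P4, against 3421, and from 27 to 1766 for P7 to adult, against 625. Depth limits Hcn2 most, with 9 to 37 UMIs at each embryonic stage of the developmental series and 131 on the C57BL/6 plates of E18.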
